A study of Mus musculus with 30 samples.

Results

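Gene expression on ribosomes of D1 medium spiny neurons was compared between stress-resilient and unstressed female mice. The comparison took the 5 D1 Resilient and the 5 D1 Control libraries, 10 of the 30 in the series, as their sample titles and table columns name them. It covered every gene that passed a minimum count, 19368 of the 55335 genes counted. The members are therefore libraries chosen by label and genes chosen by abundance over all 30 libraries, not by how they differed.

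Both groups were female D1-Cre-RT mice. RT stands for RiboTag, an allele that adds an HA epitope to the ribosomal protein Rpl22 in cells that have expressed Cre recombinase, here under control of the D1 dopamine receptor gene. Polyribosomes were pulled down with an antibody to HA from punches of the nucleus accumbens, so the libraries sample RNA held by tagged ribosomes together with whatever other RNA the beads carry. Resilient mice had undergone CWDS (chronic witness defeat stress, the repeated sight of another mouse being attacked) and were classed by their social interaction scores. Control mice are labelled Control for treatment and carry the same alleles. Punches were collected 24 h after that test. Mice were pooled by similar score, 4 to a library, and libraries were built from 10 ng of RNA. The age of the mice is not given in the sources used here. The other 20 libraries are D1 Susceptible mice and the 3 matching groups of A2A-Cre-RT mice, whose tag marks the D2 class. Each library is a pool, so the spread between libraries is that between pools and not between animals.

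D1 medium spiny neurons are GABAergic projection neurons that respond to dopamine through a receptor coupled to cAMP production. In the accumbens they are known for their part in reward and in social behaviour after stress. Synaptic activity and cAMP switch on immediate early genes in these neurons through the transcription factor CREB, which binds the cAMP response element (CRE) of many promoters. Ribosomal proteins and subunits of the respiratory chain are made from some of the shortest and most abundant messengers of a neuron.

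The 10 libraries held 40504633 to 59141960 counts in genes, with 20252 to 22375 genes at 1 count or more and 10.1% to 11.6% of reads not assigned to a gene. Levels are given as CPM, counts scaled to a common library size with TMM factors, and 3 counts in a library correspond to 0.0507 to 0.0741 CPM. Of the 10 libraries, 2 stood apart. Control replicate 1 was separated from the other 9 by the first principal component of log2 CPM, which held 21.8% of the variance, and Resilient replicate 5 by the second, which held 12.9%. The gene Gm42418, which lies over ribosomal RNA sequence, took 2.49% of counts in Control replicate 1 and 0.365% to 0.659% in the other 9. Summed astrocyte markers were 291 CPM in Control replicate 1, against 77.3 to 106 CPM in the other 4 Control libraries and 73.7 to 90.6 CPM in Resilient libraries. Values without one or the other are given beside the lists that differ most with it.

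Markers of D1 neurons were present in every library. Drd1, which encodes the D1 receptor, was 380, 476, 482, 569 and 562 CPM in Control replicates 1 to 5 and 573, 470, 455, 548 and 461 CPM in Resilient replicates 1 to 5. Pdyn, the precursor of dynorphin, averaged 574 ± 54.9 CPM in Control and 598 ± 62.7 CPM in Resilient (SD, n = 5 each), and Tac1, the precursor of substance P, 816 ± 82.2 and 882 ± 74.3 CPM. The ranges of the groups overlapped for each of these genes, and 0 of 7 markers of D1 neurons had an unadjusted p under 0.05 in either direction (median log2 change 0.02). Markers of D2 neurons were present at lower levels than in the D2 Control libraries, with Drd2 at 49.8 to 125 CPM in the 10 libraries against 294 to 572 CPM there. Of 5 D2 MSN markers, 0 had an unadjusted p under 0.05, and their median log2 change was 0.14, or 0.33 without Control replicate 1 and -0.0058 without Resilient replicate 5. Their summed level was 2753 CPM in Resilient replicate 5 and 2254 CPM in Control replicate 1, against 1331 to 1832 CPM in the other 8 libraries. Summed D1 MSN markers were 2252.5 CPM in Resilient replicate 5 and 1786 CPM in Control replicate 1, below the D2 sums there. In the other 8 libraries they were above the D2 sums. Rpl22, whose product carries the tag, was 56.6 to 63.9 CPM in Control and 56.3 to 71.2 CPM in Resilient.

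No gene passed the adjusted threshold of 0.05 in edgeR's quasi-likelihood test with Benjamini-Hochberg adjustment over the 19368 genes, which is 0% called. At an unadjusted p under 0.05, 210 genes (1.08%) were higher in Resilient and 293 (1.51%) were lower. The smallest adjusted p was 0.388, for Rps29. DESeq2 called 1 gene, Rps29, and limma's voom without sample weights called 0. All 5 Resilient libraries lay above all 5 Control libraries for 173 genes (0.893%) and below them for 126 genes (0.651%). The genes and lists below are therefore described by their values, their unadjusted p and these shares, and a gene with an unadjusted p under 0.05 is not a called gene.

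The number of calls differed with the libraries that entered the fit. A fit of only the 10 libraries called 13 of 17016 genes (0.0764%), 10 higher and 3 lower. The protein-coding genes among those higher were Rps29 (edgeR quasi-likelihood, adjusted p 0.00102), Atp5k (0.00127), Rps28 (0.00344), Ndufb9 (0.0185), Frat1 (0.0267) and Jakmip1 (0.0327). The protein-coding gene among those lower was Btg2 (0.0284). Rps29, Atp5k and Rps28 were called in each of the 10 fits that left out 1 of these libraries, while Btg2 was called in 1 of them, that without Control replicate 1. The count of calls was 47 without Control replicate 1, 17 without Resilient replicate 5, 12 without Control replicate 5 and 3 or 4 without any other library. Leaving out Control replicate 1 and Resilient replicate 5 together gave 64 calls of 17011 genes (0.376%), 35 higher and 29 lower, with all 13 among them. Voom with sample quality weights over all 30 libraries called 94 genes higher (0.485%) and 86 lower (0.444%). It gave Control replicate 1 a weight of 0.462 and Resilient replicate 5 a weight of 0.785. The lowest weights, 0.057 and 0.070, went to D2 Susceptible replicates 1 and 2, outside the comparison. Which weights the number of calls goes with was not tested. Leaving out Control replicate 1 alone from the fit of 30 libraries called 0 genes and left 241 genes higher (1.22%) and 218 lower (1.1%) on the unadjusted threshold.

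**Figure D1:**
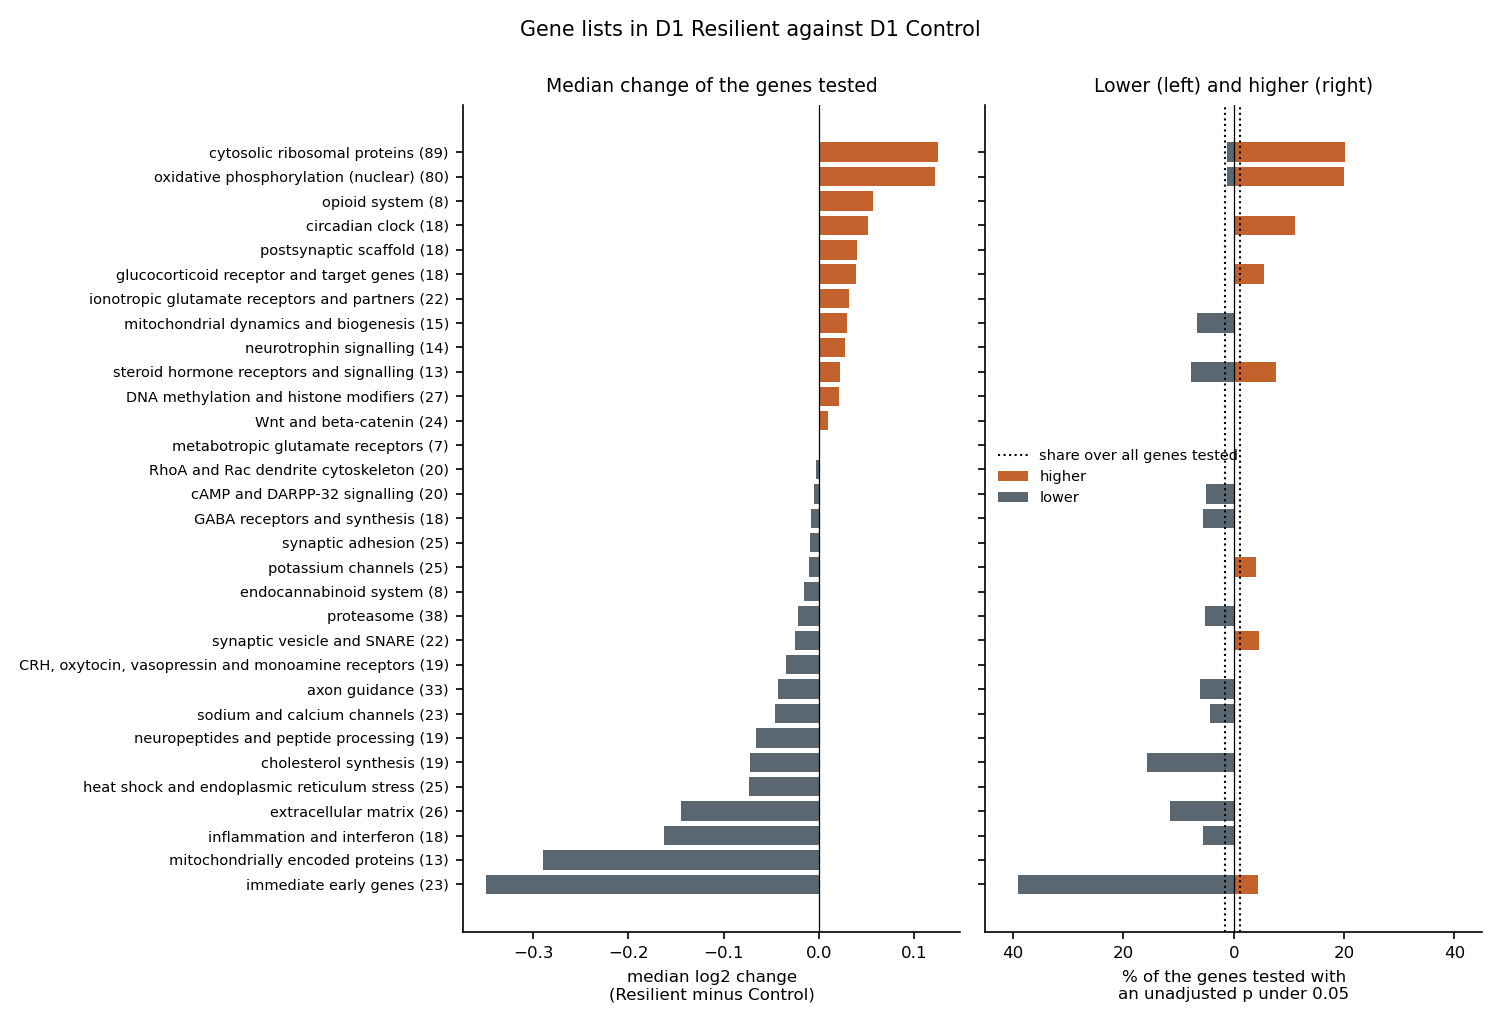
Gene lists in D1 Resilient against D1 Control. The left panel gives each list's median log2 change and the right panel the percentage of its tested genes with an unadjusted p under 0.05, lower to the left and higher to the right, with dotted lines at the shares over all genes tested (1.51% and 1.08%); cytosolic ribosomal and nuclear respiratory genes reach 20.2% and 20% on the higher side, immediate early genes 39.1% on the lower side.

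Genes of the cytosolic ribosome and of the respiratory chain were higher in Resilient more often than genes in general, with small changes in most members. Of 89 tested cytosolic ribosomal proteins, out of 91 found in the files, 18 were higher and 1 was lower (unadjusted p under 0.05), and 10 had all Resilient libraries above all Control libraries. Their median log2 change was 0.12, and 72 of the 89 were positive. Of 80 tested nuclear-encoded genes of oxidative phosphorylation, out of 86, 16 were higher and 1 was lower. Of these 80, 12 lay above all Control libraries, and the median log2 change was also 0.12. The summed levels of the lists overlapped between groups except in Resilient replicate 5. Summed ribosomal genes were 9790 to 10914 CPM in Control, 10079 to 10870 CPM in Resilient replicates 1 to 4 and 12529 CPM in Resilient replicate 5. Summed respiratory genes were 12800 to 13316, 13076 to 13607 and 15116 CPM in the same order. Both lists were drawn by symbol and include processed pseudogenes, among them Atp5k-ps2, which was 1 of the 16 higher. Over all genes tested the corresponding shares were 1.08% higher, 1.51% lower and 0.893% above all Control libraries.

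Rps29, a small-subunit protein of the ribosome, stood at the top of the ranking. It was 44.5, 38.4, 35.2, 40.2 and 50.4 CPM in the Control libraries and 71.3, 79.9, 71.5, 69.9 and 76.2 CPM in the Resilient libraries. The lowest Resilient library was well above the highest Control library, and the log2 change was 0.82 (SE 0.163, unadjusted p 2.00e-05 by edgeR), a 1.77-fold difference. Rps29 lies at chr12:69157722-69159186 (GRCm38), and its transcripts have a median length of 425.5 nt.

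Rps28, another protein of the small subunit, was 31.1, 30.4, 26.3, 24.6 and 28.2 CPM in Control and 39.8, 45.5, 41.8, 45.5 and 45.4 CPM in Resilient. The groups did not overlap, and the log2 change was 0.63 (SE 0.143). Rps27 was 51.4, 56.7, 52.2, 53.3 and 69.2 CPM in Control and 72.5, 69.8, 81.4, 71.4 and 87.8 CPM in Resilient, with the highest Control library just under the lowest Resilient library (log2 change 0.44). Rpl38, a large-subunit protein, was 47.5, 40.5, 45, 41.3 and 52.7 CPM in Control and 57.3, 60.3, 65.8, 56.1 and 71.3 CPM in Resilient (log2 change 0.45). Rpl37, Rpl19 and Rps21 also had no overlap between groups, with log2 changes of 0.40, 0.29 and 0.44. Of the 89 genes 17 had a negative log2 change, and the 1 of these with an unadjusted p under 0.05 was Rpl17, at 6.41 to 14.7 CPM in Control and 3.54 to 10.8 CPM in Resilient (log2 change -0.82).

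Atp5k, the e subunit of mitochondrial ATP synthase, was the leading respiratory gene. It was 54.6, 44.9, 52.9, 47.3 and 60.4 CPM in Control and 81.8, 91.6, 83.3, 78.5 and 87.7 CPM in Resilient, and the groups did not overlap (log2 change 0.70, SE 0.164, unadjusted p 0.000178 by edgeR). Ndufb9, an accessory subunit of complex I, was 29.7, 26.3, 24.4, 24.4 and 26.8 CPM in Control and 38.5, 38.1, 37.9, 34.2 and 39.2 CPM in Resilient (log2 change 0.51). Ndufa3 and Ndufa1, also accessory subunits of complex I, were 57.3 to 70.6 and 60.9 to 75.1 CPM in Control against 80.2 to 101 and 77.5 to 104 CPM in Resilient. In each of these subunits the lowest Resilient library was above the highest Control library.

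Other complexes were represented as well. Cox5b and Cox7c, subunits of cytochrome c oxidase, had log2 changes of 0.28 and 0.40, and Atp5g2, which encodes the c ring of ATP synthase, of 0.25, each with no overlap between groups. Of the 80 genes 16 had a negative log2 change, and 2, Ndufb2 and Ndufa9, lay below all Control libraries. The 1 with an unadjusted p under 0.05 was Ndufb2, a complex I subunit that was 13.1 to 15.1 CPM in Control and 8.07 to 11.9 CPM in Resilient (log2 change -0.41). The 13 protein genes of the mitochondrial genome had negative log2 changes, with a median of -0.29, and none, 0 of 13, had an unadjusted p under 0.05. Their summed level was 3897 to 14135 CPM in Control and 3833 to 9509 CPM in Resilient, and without Control replicate 1 their median log2 change was 0.23. Reads of mitochondrial genes can also match nuclear copies, which leaves these levels uncertain.

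**Figure D2:**
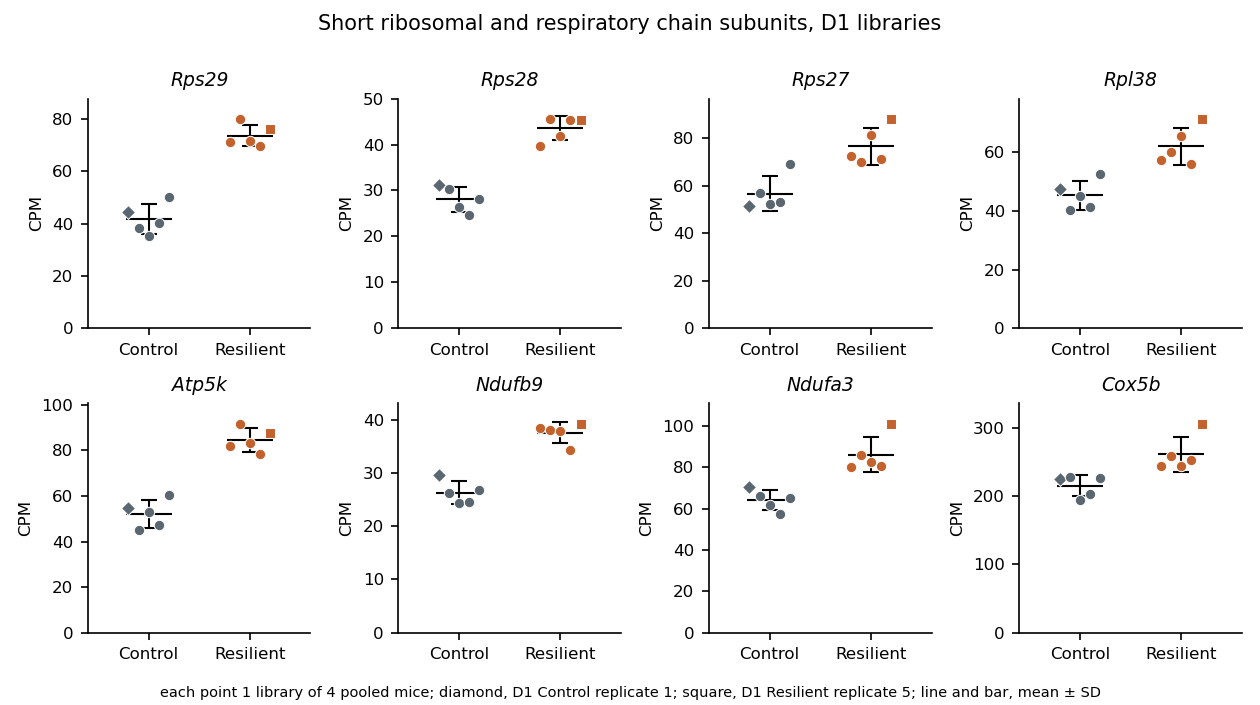
Short ribosomal and respiratory subunits by library. Each panel plots CPM of 1 gene (vertical axis) in the 5 D1 Control and 5 D1 Resilient libraries, points for libraries and lines with bars for the group mean ± SD; Rps29 sits between 35.2 and 50.4 CPM in Control and between 69.9 and 79.9 CPM in Resilient.

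Transcript length went with the size of the change. Among genes with a mean of at least 1 CPM, the 1081 genes with transcripts of up to 600 nt had a median log2 change of 0.05, and 7.03% of them were higher and 1.85% lower on the unadjusted threshold. The 687 genes with transcripts over 4500 nt had a median of -0.04, with 0.146% higher and 0.873% lower. Across 13432 genes Spearman's rho between log2 change and length was -0.14, across the 89 ribosomal genes it was -0.54, and across the 80 respiratory genes -0.46. These are descriptions over genes that share libraries and are not independent replicates.

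Within the lists the shorter members carried most of the difference. The 45 ribosomal genes of 637 nt or less had a median log2 change of 0.21 with 15 of them higher, and the 44 longer ones a median of 0.03 with 3 higher. The 40 respiratory genes of up to 588.25 nt had a median of 0.19 with 11 higher, and the 40 longer ones 0.07 with 5 higher. Library by library, medians among short transcripts were taken on the log2 scale relative to the mean of the Control libraries. Resilient replicate 5 had the largest, 0.14, against 0.02 to 0.04 in the other Resilient libraries and -0.02 to 0.02 in Control. Without Resilient replicate 5, 10 of the cytosolic ribosomal proteins and 11 of the oxidative phosphorylation (nuclear) genes were higher in place of 18 and 16, against 0.908% of all genes. With a per-library trend on length taken out of the model over 30 libraries, 148 of all genes (0.764%) were higher at an unadjusted p under 0.05, and of the lists 10 ribosomal and 9 respiratory genes. The part of transcript length in the changes of these lists was not tested beyond these values.

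Rps29, Atp5k and Rps28 had log2 changes of 0.75, 0.60 and 0.54 in the fit of 10 libraries with the length trend removed, with edgeR quasi-likelihood adjusted p of 0.00220, 0.00820 and 0.00870. In the 8-library fit 8 ribosomal proteins passed the adjusted threshold higher and 1, Rpl17, lower, and 5 respiratory genes passed it higher, against 0.376% of all genes. Voom with sample quality weights called 12 ribosomal genes higher and 1 lower, and 14 respiratory genes higher and 1 lower, against 0.485% and 0.444% of all genes. The 1 ribosomal entry lower was the processed pseudogene Rps3a2, and Atp5k-ps2 was among the 14 respiratory entries higher. With library size alone as the scaling the medians were 0.12 in both lists, as under TMM, while 6 of the cytosolic ribosomal proteins and 3 of the oxidative phosphorylation (nuclear) genes had an unadjusted p under 0.05 and a positive change, against 0.33% of all genes.

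**Figure D3:**
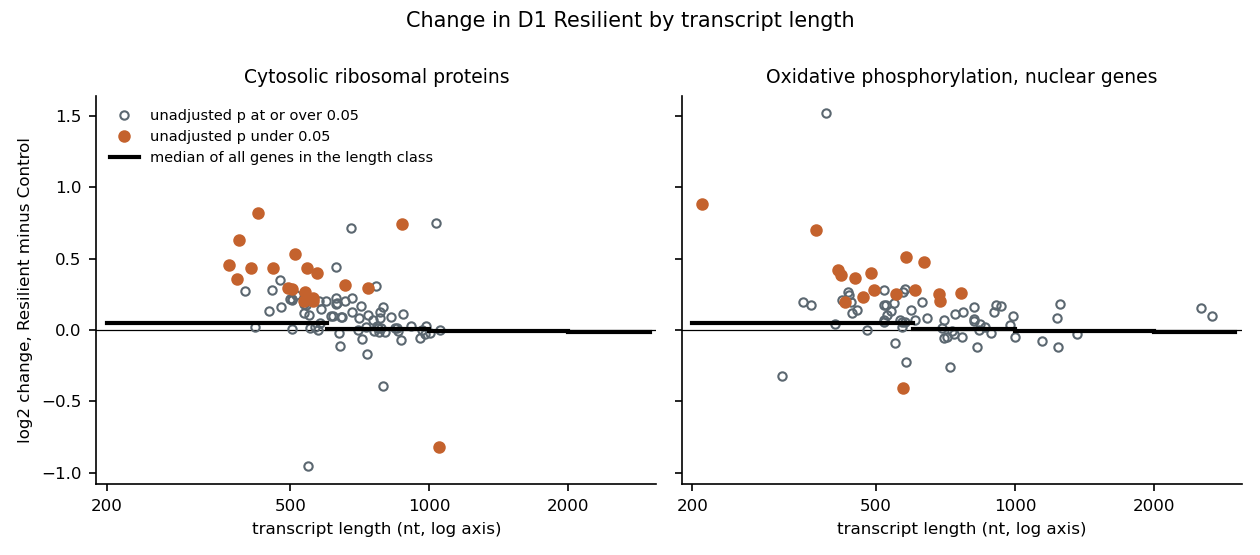
Log2 change against transcript length for ribosomal and respiratory genes. Points are genes, filled where the unadjusted p was under 0.05, the horizontal axis is transcript length in nt on a log axis, the vertical axis is the log2 change (Resilient minus Control), and black bars give the median of all genes in each length class (0.05 up to 600 nt); filled points gather at the short end.

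Many processed pseudogenes are near copies of ribosomal protein genes, and reads from the 2 kinds of locus are hard to separate. Of the 13 genes called in the fit of 10 libraries, 5 were processed pseudogenes: Rpl36a-ps2, Rpl38-ps2 and Gm14303 were higher, and Gm5805 and Gm3756 lower. Gm5805 was 6.55, 8.36, 8.06, 7.32 and 5.32 CPM in Control and 2.44, 1.90, 2.46, 3.27 and 4.38 CPM in Resilient, with no overlap. Rpl38-ps2 differed in the same direction as Rpl38, at 12.3 to 19.5 CPM in Control and 23.6 to 30.04 CPM in Resilient. Over 103 tested ribosomal protein pseudogenes the median log2 change was -0.09, and on the unadjusted threshold 7 were higher and 6 lower. Among the 64 genes called with 8 libraries, 14 of the 35 higher and 24 of the 29 lower were pseudogenes, which made up 1610 of the 19368 genes tested in the fit of 30 libraries. In that fit 45 pseudogenes (2.8%) had an unadjusted p under 0.05 and were higher, against 1.08% of all genes, and 33 (2.05%) were lower, against 1.51%. Values of ribosomal genes with such copies are uncertain to the extent that reads were placed on the wrong locus, and the same holds for Atp5k and its copy Atp5k-ps2 (log2 change 0.88).

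Most of the genes whose groups did not overlap lay outside these families. Frat1, whose product binds the kinase GSK3 and favours Wnt signalling, was 20.1, 20.9, 20.2, 21.3 and 18.6 CPM in Control and 28.9, 28.5, 26.1, 27.4 and 26.5 CPM in Resilient. The spread within each group was small beside the difference (log2 change 0.44, SE 0.108, unadjusted p 0.000292 by edgeR), and the transcript, at 2614 nt, is not a short one. None of the 24 genes of the Wnt and beta-catenin list had an unadjusted p under 0.05 in either direction. Jakmip1, which encodes a microtubule-binding protein that also binds GABA-B receptors, was 19.2, 15.6, 15.4, 14.6 and 16.5 CPM in Control and 24.8, 22.3, 22.2, 23.9 and 26.8 CPM in Resilient (log2 change 0.56, SE 0.217). Pdzd4, a PDZ domain protein, was 168 to 188 CPM in Control and 205 to 217 CPM in Resilient (log2 change 0.26). Slc30a1, a zinc exporter, ranked high through 2 libraries only: it was 52.5 CPM in Resilient replicate 3 and 33.3 CPM in Resilient replicate 4, and 0.614 to 1.17 CPM in the other 8.

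Immediate early genes were lower in Resilient more often than genes in general. Most genes of this list are ones that neuronal activity induces within minutes, and many encode transcription factors. Of 23 tested, out of 24, 9 were lower and 1 higher (unadjusted p under 0.05), and 22 of the 23 had a negative log2 change, with a median of -0.35. Over all genes tested 1.51% were lower. Those lower were Nr4a1, Btg2, Dusp6, Arc, Egr1, Fos, Fosl2, Nptx2 and Dusp1. The one with a higher value, Jund, rested on 2 libraries, at 152 CPM in Resilient replicate 2 and 12.7 CPM in Resilient replicate 4 against 2.34 to 3.53 CPM in the other 8.

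The promoters of 4 of the lower genes are shown because the CRE, the letters TGACGTCA, or its core TGACG links many such genes to cAMP and activity. Each sequence is the 250 bases before the RefSeq start (GRCm38.p6), written 5′ to 3′ on the gene's strand, with full sites and cores in capitals, CGTCA being the core read on the other strand. A full site contains a core on each strand, and these overlap. Coordinates are Nr4a1 chr15:101266596-101266845 on the plus strand, Btg2 chr1:134079156-134079405 on the minus strand, Fos chr12:85473640-85473889 on the plus strand and Dusp1 chr17:26508473-26508722 on the minus strand.
Nr4a1: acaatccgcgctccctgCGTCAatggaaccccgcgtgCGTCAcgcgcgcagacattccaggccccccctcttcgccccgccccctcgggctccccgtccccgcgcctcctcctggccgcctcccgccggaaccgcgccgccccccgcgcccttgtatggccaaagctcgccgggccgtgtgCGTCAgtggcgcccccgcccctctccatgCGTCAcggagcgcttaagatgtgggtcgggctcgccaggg
Btg2: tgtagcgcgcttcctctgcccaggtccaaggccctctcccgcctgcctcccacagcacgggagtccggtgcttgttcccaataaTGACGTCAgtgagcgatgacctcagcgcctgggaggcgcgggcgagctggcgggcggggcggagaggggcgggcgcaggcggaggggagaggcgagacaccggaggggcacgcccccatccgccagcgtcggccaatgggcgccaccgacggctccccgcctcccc
Fos: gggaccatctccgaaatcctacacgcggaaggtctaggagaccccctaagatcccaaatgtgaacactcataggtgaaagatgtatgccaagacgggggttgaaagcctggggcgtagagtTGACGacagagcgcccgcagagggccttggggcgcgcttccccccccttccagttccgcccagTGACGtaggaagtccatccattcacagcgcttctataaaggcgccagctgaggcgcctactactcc
Dusp1: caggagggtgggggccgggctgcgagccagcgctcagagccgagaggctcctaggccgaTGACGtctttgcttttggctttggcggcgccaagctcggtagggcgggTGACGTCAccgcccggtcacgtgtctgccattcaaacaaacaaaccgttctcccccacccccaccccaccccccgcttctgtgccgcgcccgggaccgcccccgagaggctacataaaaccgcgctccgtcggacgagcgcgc

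Nr4a1 held 4 cores, Fos 2, Btg2 2 within its full site, and Dusp1 3, of which 2 lie within its full site. The promoter table held 18 of the 23 activity genes, with 19 promoters. Of these, 13 (68.4%) held a core on either strand and 2 (10.5%) the full site, against 17.8% and 1.55% of all 32851 promoters of the same length. Of the 9 genes listed above as lower, 6 had a promoter in the table and 4 of those, the ones printed, held a core. Dusp6 and Fosl2 held none. Of the activity genes not listed as lower, Atf3, Egr4, Fosb, Homer1, Junb, Klf4, Npas4, Nr4a2 and Nr4a3 held a core. Ier5, Jun and Jund held none. A core was thus not particular to the lower genes. A match describes letters in this window and shows nothing about binding.

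Nr4a1, an orphan nuclear receptor, had the smallest p of the list. It was 87.0, 127, 92.9, 97.3 and 139 CPM in Control and 33.2, 73.0, 55.2, 90.3 and 59.4 CPM in Resilient. Resilient replicate 4 lay above the lowest Control library and the other 4 below every Control library, and the log2 change was -0.80 (SE 0.215, unadjusted p 0.000828 by edgeR). Btg2, an antiproliferative gene that activity also induces, was 9.08, 10.9, 13.1, 9.40 and 12.7 CPM in Control and 6.92, 6.34, 6.43, 7.42 and 6.11 CPM in Resilient, with no overlap (log2 change -0.73, SE 0.198). Arc, a cytoskeletal protein of active synapses, was 51.3, 79.1, 52.4, 61.4 and 88.1 CPM in Control and 33.0, 45.3, 33.0, 44.8 and 26.4 CPM in Resilient, also with no overlap (log2 change -0.86, SE 0.277). Over all genes 0.651% showed such a separation downward, and 2 of the 23 activity genes did.

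Fos, a member of the AP-1 transcription factor family, overlapped between groups. It was 10.2, 20.6, 17.1, 19.5 and 31.0 CPM in Control and 8.51, 13.5, 10.6, 13.4 and 10.2 CPM in Resilient (log2 change -0.81, SE 0.266). Control replicate 1 was the lowest Control library for Fos, and without it the unadjusted p by edgeR was 0.000868 in place of 0.00501. Dusp6, a phosphatase of the kinase ERK, was 28.9, 37.6, 42.2, 39.9 and 50.2 CPM in Control and 23.4, 30.6, 29.7, 32.8 and 31.1 CPM in Resilient (log2 change -0.43). Egr1, a zinc-finger transcription factor, was the most abundant of the 9, at 276, 344, 302, 366 and 433 CPM in Control and 197, 304, 258, 310 and 278 CPM in Resilient (log2 change -0.35). The log2 changes of Fosl2, Nptx2 and Dusp1 were -0.38, -0.35 and -0.34.

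Not all activity genes passed the unadjusted threshold in the fit of 30 libraries. Junb, Fosb, Npas4 and Jun had log2 changes of -0.33, -0.30, -0.35 and -0.07, each with an unadjusted p of at least 0.118 by edgeR. Egr3 was 133 to 216 CPM in Control and 138 to 166 CPM in Resilient (log2 change -0.23, unadjusted p 0.0623 by edgeR). Bdnf, a neurotrophin gene that activity also induces and that is not in this list, was 10.6 to 23.4 CPM in Control and 8.20 to 12.6 CPM in Resilient (log2 change -0.64, unadjusted p 0.0505). Klf10, a zinc-finger gene outside the list, was 30.8 to 50.8 CPM in Control and 26.1 to 29.98 CPM in Resilient, with no overlap (log2 change -0.46, unadjusted p 0.00113). In the fit of only the 10 libraries, Junb had an unadjusted p of 0.0287 by edgeR. There Fosb, Npas4, Jun and Egr3 had 0.0514, 0.173, 0.386 and 0.0506.

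Control replicate 5 was the highest of the 10 libraries for Nr4a1, Arc, Egr1, Fos and Dusp6. Without it 7 immediate early genes were lower, against 1.41% of all genes, and the median was -0.25, and over the 10 fits that each left out 1 library the number lower was 7 to 12 and the median -0.41 to -0.25. Without Control replicate 1, 11 were lower, against 1.1% of all genes. Voom with sample quality weights called 9 of the list lower at an adjusted p under 0.05, against 0.444% of all genes. Those 9 included Egr3 and Homer1, the gene of a postsynaptic scaffold protein, and neither Nptx2 nor Dusp1. With library size alone as the scaling 5 were lower, against 0.966% of all genes, and the median was unchanged at -0.35.

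**Figure D4:**
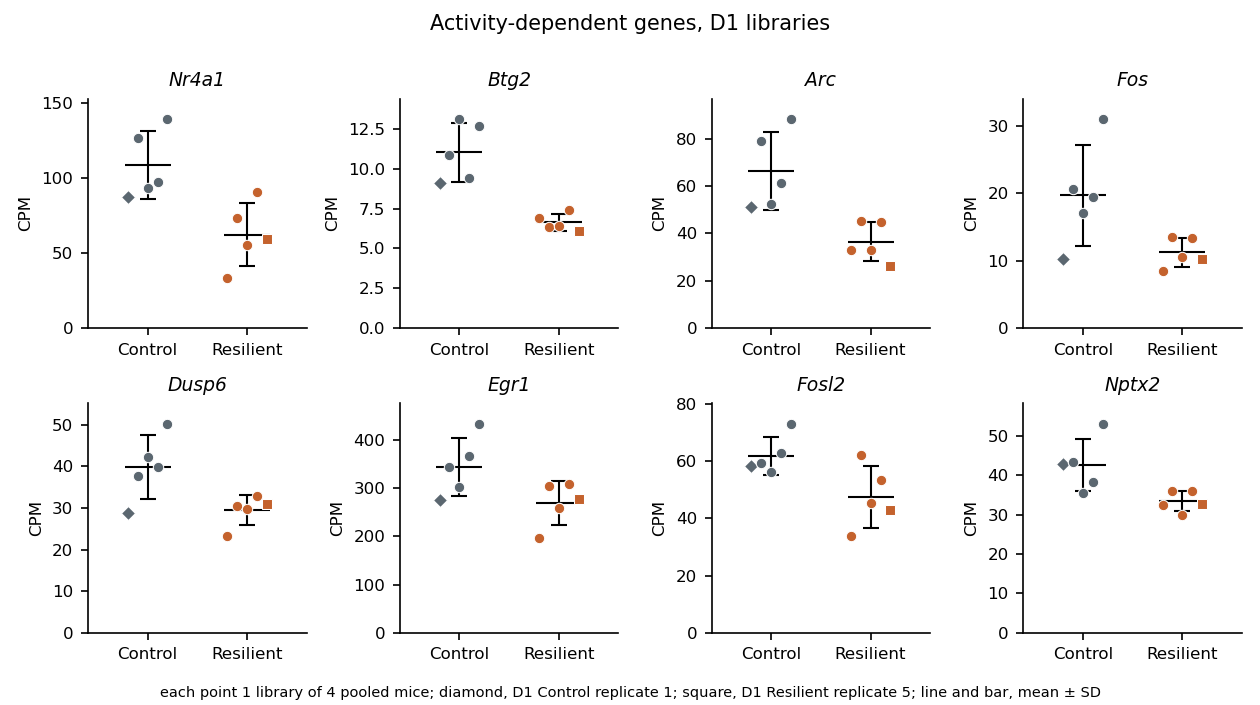
Immediate early genes by library. Each panel plots CPM of 1 gene (vertical axis) in the 5 D1 Control and 5 D1 Resilient libraries, points for libraries and lines with bars for the group mean ± SD; Arc lies at 51.3 to 88.1 CPM in Control and 26.4 to 45.3 CPM in Resilient, while the groups overlap for Nr4a1 and Fos.

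Genes of glucocorticoid signalling differed little. Fkbp5, a co-chaperone gene that glucocorticoids induce, was 57.4, 55.3, 51.7, 60.7 and 54.0 CPM in Control and 65.6, 69.0, 61.8, 69.4 and 59.0 CPM in Resilient. The groups overlapped through Resilient replicate 5 and Control replicate 4, and the log2 change was 0.22 (SE 0.0772, unadjusted p 0.00790 by edgeR). It was 1 of 18 genes of its list with an unadjusted p under 0.05, 5.56% against 1.08% of all genes. Nr3c1, the glucocorticoid receptor gene, and Sgk1, another of its targets, had log2 changes of -0.06 and 0.00. Crhr1, which encodes a receptor for corticotropin-releasing hormone, was 3.42 to 5.37 CPM in Control and 3.62 to 5.71 CPM in Resilient.

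Of 18 clock genes 2 were higher and 0 lower, against 1.08% and 1.51% of all genes. Bhlhe41, a repressor in the clock loop, was 96.6, 91.6, 85.7, 99.6 and 96.7 CPM in Control and 115, 107, 106, 111 and 112 CPM in Resilient, with no overlap (log2 change 0.23). Dbp, an output gene of the clock, was 108 to 147 CPM in Control and 146 to 188 CPM in Resilient (log2 change 0.34). Time of day at collection is not given in the sources used here. In cholesterol synthesis 3 of 19 genes were lower, against 1.51% of all genes, and 0 higher, with a median of -0.07: Hmgcs1, Cyp51 and Msmo1 had log2 changes of -0.24, -0.24 and -0.27. Without Resilient replicate 5, 1 gene of cholesterol synthesis was lower, against 1.39% of all genes. With library size alone as the scaling, 0 genes of the circadian clock, of cholesterol synthesis or of the glucocorticoid receptor and target genes had an unadjusted p under 0.05.

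The lists of synaptic and excitability genes held few differences. Their counts, at an unadjusted p under 0.05, stand against 1.08% higher and 1.51% lower over all genes tested. Of 25 potassium channel genes 1 was higher, Kcnip2 (log2 change 0.25), an accessory protein of A-type channels, and 0 were lower. Of 23 sodium and calcium channel genes 1 was lower, Scn1a (log2 change -0.31), and 0 were higher. Vamp2, the main vesicle SNARE of neurons, was 1196 to 1286 CPM in Control and 1327 to 1437 CPM in Resilient, with no overlap (log2 change 0.15). It was the 1 higher gene of 22 in its list. Rgs2, a regulator of G-protein signalling, was the single lower gene of 20 in the list of cAMP signalling, with a log2 change of -0.21. None of the 22 ionotropic and 7 metabotropic glutamate receptor genes, 18 postsynaptic scaffold genes, 25 synaptic adhesion genes, 8 opioid genes, 20 dendrite cytoskeleton genes or 27 chromatin modifier genes had an unadjusted p under 0.05 in either direction. In the axon guidance list, 2 of 33 genes were lower, the receptors Unc5c and Robo2 (log2 changes -0.35 and -0.23). Pcdh20, a protocadherin, was 6.96 to 13.9 CPM in Control and 5.12 to 7.28 CPM in Resilient (log2 change -0.70).

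Markers of glia and vessels were lower in Resilient, and most of the difference was absent without Control replicate 1. Of 8 astrocyte markers 5 were lower at an unadjusted p under 0.05, of 8 oligodendrocyte markers 6, of 8 microglia markers 2 and of 6 mural markers 3, with median log2 changes of -0.78, -0.51, -0.54 and -0.53. Over all genes 1.51% were lower. Aqp4, the water channel of astrocytes, was 12.2, 3.46, 3.92, 3.09 and 3.59 CPM in Control and 2.12, 1.43, 3.02, 2.59 and 3.56 CPM in Resilient. Mag, a myelin protein gene, was 47.0 CPM in Control replicate 1, 9.55 to 17.1 CPM in the other Control libraries and 9.17 to 18.3 CPM in Resilient. Without Control replicate 1 the numbers lower were 0 of 8 astrocyte, 0 of 8 oligodendrocyte, 0 of 8 microglia and 1 of 6 mural markers, against 1.1% of all genes, and the medians -0.20, -0.24, -0.15 and -0.40. Of 6 oligodendrocyte precursor, 7 endothelial, 9 interneuron and 6 cortical glutamatergic markers, 0 had an unadjusted p under 0.05, with medians of -0.51, -0.42, -0.08 and -0.11. Without Control replicate 1 these medians were -0.09, -0.09, 0.0036 and -0.15. In the extracellular matrix list 3 of 26 genes were lower, Sparc, Bcan and Col1a1, against 1.51% of all genes, and 0 without Control replicate 1. In pulldowns from tissue punches, the amount of other RNA carried by the beads, the number of cells of a type and RNA per cell cannot be told apart.

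The mural gene that remained was Abcc9, a potassium channel subunit found in pericytes. It was 1.45, 0.255, 0.452, 0.517 and 0.753 CPM in Control and 0.112, 0.232, 0.165, 0.163 and 0.314 CPM in Resilient. The log2 change was -1.79, or -1.29 without Control replicate 1. These are low levels, where 3 counts correspond to 0.0507 to 0.0741 CPM. The summed mural markers were 28.5 CPM in Control replicate 1, 12.05 to 14.9 CPM in the other Control libraries and 8.51 to 12.2 CPM in Resilient. Summed oligodendrocyte markers were 1048 CPM in Control replicate 1, 518 to 623 CPM in the other Control libraries and 392 to 556 CPM in Resilient. Of all markers, Acta2 was at 0 in 2 of the 10 libraries and Folr1, a choroid plexus gene, in 6, and no other marker was at 0. Other genes with lower values were high in the same library: Pon2 was 12.8 CPM in Control replicate 1 and 2.70 to 3.23 CPM in the other Control libraries, and Mal, a myelin gene, 43.0 and 16.2 to 20.8 CPM. Without Control replicate 1 their log2 changes were -0.34 and -0.40 in place of -1.11 and -0.74. For Fgfr2, a growth factor receptor gene, and Anxa3, an annexin gene, they were -0.92 and -0.89 in place of -1.11 and -1.08. The ribosomal, respiratory and immediate early lists differed as much without Control replicate 1, with medians of 0.14, 0.13 and -0.41. In that fit 18 of 89 and 19 of 80 genes were higher, against 1.22% of all genes, and 11 of 23 lower, against 1.1%.

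**Figure D5:**
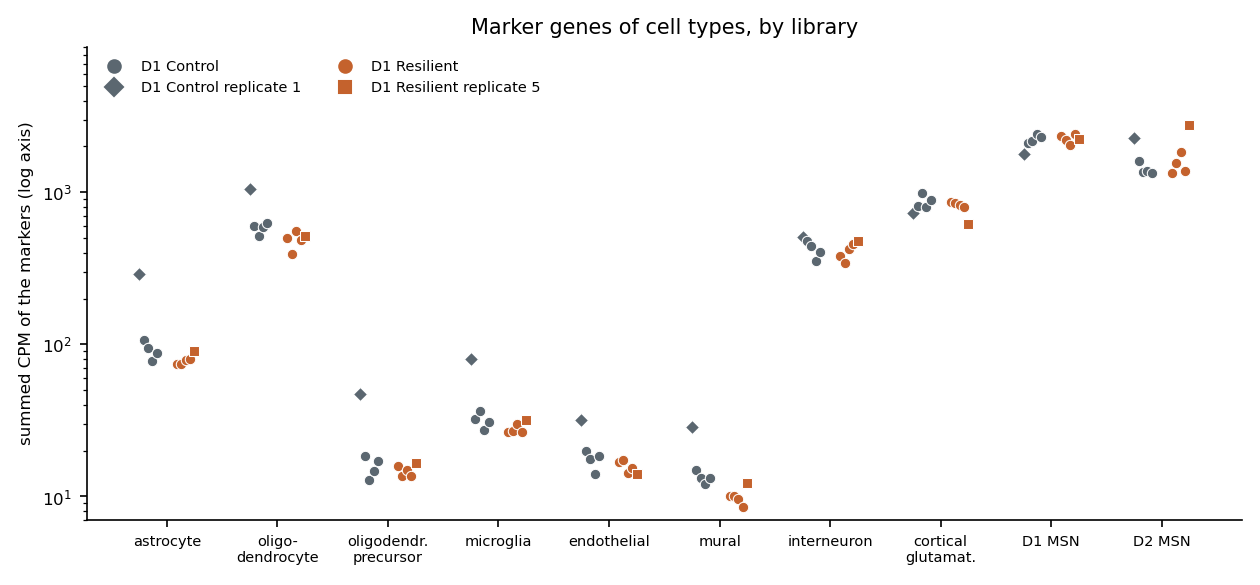
Marker genes of cell types by library. Each column is 1 marker list, the vertical axis is the summed CPM of its markers on a log axis, circles are D1 Control and D1 Resilient libraries, the diamond is Control replicate 1 and the square Resilient replicate 5; Control replicate 1 lies above the other 9 libraries for the glial and vascular lists (astrocytes 291 CPM against 73.7 to 106 CPM).

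The change in D1 neurons was set beside that in D2 neurons, whose Control libraries are separate. In D2 Resilient against D2 Control, 17 of the 89 ribosomal genes and 23 of the 80 respiratory genes were lower at an unadjusted p under 0.05, against 2.58% of all genes, and the median log2 change was -0.17 in both lists. The difference of the changes, D1 minus D2, was tested as an interaction. It was called for 0 of 19368 genes in edgeR's quasi-likelihood test (smallest adjusted p 0.594). At an unadjusted p under 0.05 it was higher for 33 ribosomal and 38 respiratory genes, against 3.15% of all genes, and lower for 0 and 1. Rps29 was 71.2 to 111 CPM in D2 Control and 52.0 to 102 CPM in D2 Resilient, a log2 change of -0.28, and the interaction was 1.1 (SE 0.229, unadjusted p 4.02e-05 by edgeR). Rps29 in D1 Resilient, at 73.8 ± 4.19 CPM, was thus at the mean of D2 Resilient, 73.7 ± 18.2 CPM, and D1 Control at 41.7 ± 5.88 CPM was the low group (SD, n = 5 each). Atp5k, Ndufa3, Ndufb9 and Cox5b also averaged more in D2 Control, at 92.3, 96.8, 46.9 and 297 CPM. Their D1 Control means were 52.0, 64.1, 26.3 and 215 CPM. Ndufb2 and Ndufa9 averaged less in D2 Control, 9.15 and 221 CPM against 14.0 and 234 CPM. The part of D2 RNA in the D1 levels was not tested.

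For activity genes the interaction was lower for 6 and higher for 1 of 23, against 1.84% lower over all genes. The D2 median was -0.11 with 1 of 23 lower. Nr4a1 was 92.2 ± 23.3 CPM in D2 Control and 88.5 ± 15.2 CPM in D2 Resilient, and Btg2 7.53 ± 1.82 and 8.30 ± 2.05 CPM. The interactions of Nr4a1, Btg2 and Fos were -0.74, -0.87 and -1.03 on the log2 scale, with unadjusted p of 0.0200, 0.00382 and 0.0101 by edgeR. Pcdh20 had opposite signs in the classes, with log2 changes of -0.70 in D1 and 0.62 in D2 (interaction -1.32, unadjusted p 0.000184 by edgeR).

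D1 Susceptible libraries share the Control libraries with D1 Resilient, so their changes against Control are not independent. In D1 Susceptible 7 of the 23 activity genes were lower at an unadjusted p under 0.05, against 0.991% of all genes, and the median log2 change was -0.28. Btg2 was 5.89 to 7.50 CPM and Fos 8.71 to 15.3 CPM in D1 Susceptible, within or close to the range of D1 Resilient. Tested directly, Resilient minus Susceptible was called for 0 of 19368 genes (edgeR, smallest adjusted p 0.243). At an unadjusted p under 0.05, 21 ribosomal and 23 respiratory genes were higher in Resilient than in Susceptible, against 1.28% of all genes, and 0 were lower. Without Susceptible replicate 1, a library with 53.3% of its reads unassigned, these were 13 and 14, against 0.912% of all genes. Rps29 was 39.8 to 69.1 CPM in Susceptible, all 5 libraries below the lowest Resilient library, and Atp5k 44.4 to 80.0 CPM.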

How the data were processed

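The 10 D1 Resilient and D1 Control libraries are part of a series of 30 (6 groups of 5), each a RiboTag immunoprecipitate of nucleus accumbens punches from 4 pooled female mice, made with SMART-Seq v4 per the labels. The deposited values are raw gene counts. HISAT2, HTSeq, GRCm38 and mm10 are named in the submitters' processing notes. No source used here gives the strand setting or the annotation release. Rows that name no gene were left out of library sizes (10.1% to 11.6% of reads in these 10 libraries). Genes were filtered with edgeR's filterByExpr (minimum count 10, minimum total 15), leaving 19368 of 55335. The main test was edgeR 4.0.16 (quasi-likelihood, robust, TMM) with 6 group means over all 30 libraries, in R 4.3.3, with Benjamini-Hochberg adjustment over all genes tested. Alternatives used DESeq2 1.42.0, limma 3.58.1, sva 3.50.0, other scalings and filters, fewer libraries and a transcript-length trend. The fits with Control replicate 1 and Resilient replicate 5 left out together, the length fits and the leave-one-out of the 10-library fit were chosen after seeing the data. Scripts were tested on simulated data. Named genes were the 10 with the smallest p in each direction among genes with a mean of at least 1 CPM. Without that minimum, those called in the 10-library fit, up to 4 per list with an unadjusted p under 0.05 (otherwise the 2 most abundant) and check genes were added. Jakmip1, Bdnf, pseudogene copies and list members outside this rule were named after their values were seen. The gene lists and the comparison were chosen with earlier results of these data known. Some genes are not reported here. Promoter sequences are RefSeq's (GRCm38.p6). Replicate numbers do not pair libraries: same-numbered D1 libraries correlated at -0.029 to 0.025 in their deviations from the group means. The labels do not say that pools were independent cohorts, so p-values measure the spread between libraries, which may be partly technical. In the main test that spread was estimated within the 6 groups of all 30 libraries, not only within the 10 compared.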

Additional observations from a re-analysis of the deposited data

Results flagged for a closer look

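A library was singled out where its distance from the nearest of the other 4 in its group was large beside the group's range (Dixon's test at the 95% level). This was so for 40 of the 316 groups of 5 examined, where chance gives about 1 in 20, and 24 of the 40 were Control replicate 1. These values were chosen by their distance and carry no test of the groups.

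In Control replicate 1 the high values were those of glial and vascular genes. For astrocytes and matrix, Aqp4 was 12.2, Gja1 36.3, Gfap 13.0, Aldoc 124, Sparc 39.6, Bcan 43.3 and Col1a1 1.59 CPM. For oligodendrocytes, Mal was 43.0, Mag 47.0, Sox10 7.48 and Olig1 21.9 CPM. For microglia and vessels, C1qa was 7.73, Vtn 11.2 and Rgs5 13.5 CPM. Pon2 at 12.8, Gper1 at 0.677 and Penk at 1810 CPM were high in the same library, and Gm3756 at 4.36 CPM was low. Summed markers there were 291 CPM for astrocytes, 1048 for oligodendrocytes, 47.4 for oligodendrocyte precursors, 80.6 for microglia and 28.5 for mural cells, while summed proteasome genes were low at 4653 CPM.

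Resilient replicate 5 was the library apart for 8 values. It was high for Ndufa3 at 101, Cfl1 at 1230, Hdac2 at 281, Psmb9 at 0.296 and summed nuclear oxidative phosphorylation genes at 15116 CPM. It was low for Slc17a7 at 458, summed cortical glutamatergic markers at 617 and summed receptors for CRH, oxytocin, vasopressin and monoamines at 405 CPM.

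The other values were spread over 4 libraries. Control replicate 5 was high for Rpl36a-ps2 at 13.4, Ttr at 13.3 and Psmd10 at 26.5 CPM, the last against 0.375 to 0.535 CPM in the other Control libraries. Resilient replicate 2 was high for Jund at 152 and P2ry14 at 0.0967 CPM. Resilient replicate 1 was low for Cyp51 at 55.1 CPM and high for Gsk3b at 289 CPM, and Resilient replicate 4 was low for Ndufb9 at 34.2 CPM.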

How the results depend on the processing

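Genes called at an adjusted p under 0.05 numbered 0 in the test of 30 libraries and in each repeat of that test without 1 of the 10 libraries compared. They numbered 13 with only the 10 libraries, 5 with the 15 D1 libraries, 180 by voom with sample quality weights, 1 by DESeq2, 64 with 8 libraries and 11 with 10 libraries and the length trend removed. Genes higher at an unadjusted p under 0.05 numbered 64 with library size alone, 621 with no filter, 600 with 10 libraries, 444 with 15, 371 with 1 surrogate variable, 1379 by voom with weights, 956 with 8 libraries and 573 with 10 libraries and the length trend removed. In the same order, without the surrogate variable, genes lower numbered 187, 717, 605, 517, 1458, 1101 and 629. The replicate block, on numbers that do not pair the libraries, gave 12 calls, 656 genes higher and 608 lower. The cause of these differences was not tested.

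Of 108 named genes 91 kept their sign in every alternative and 17 did not, most of them with changes near 0. By voom with weights the log2 change was 0.039 for Sst, -0.086 for Map1b, -0.041 for Smarca2, -0.106 for Nrxn3, -0.038 for Gsk3b, -0.068 for Drd1 and -0.034 for Sgk1. With Control replicate 1 and Resilient replicate 5 left out of 30 and of 10 libraries it was 0.033 and 0.032 for Olig1, -0.173 and -0.175 for Map1b, -0.055 and -0.057 for Smarca2, -0.180 and -0.182 for Nrxn3, -0.015 and -0.017 for Gsk3b, 0.081 and 0.079 for Crhr1, -0.023 and -0.025 for Drd1, and -0.0071 and -0.0086 for Sgk1. With the length trend removed over 30 libraries it was 0.012 for Gria2, 0.0042 for Crhr1 and -0.0069 for Sgk1, and with 10 libraries 0.012 for Gria2 and -0.0077 for Sgk1. By voom without weights it was 0.0013 for Psmd10 and 0.037 for Gria2, with the replicate block 0.033 for Gria2, and with 15 libraries -0.0031 for Sgk1.

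Leaving out 1 library at a time gave log2 changes of -0.0028 to 0.078 for Abhd12, -0.129 to 0.076 for Crhr1, -0.053 to 0.082 for Drd1, -0.044 to 0.350 for Drd2, -0.185 to 0.050 for Gria2, -0.023 to 0.043 for Gsk3b, -0.082 to 0.018 for Htr2c, -0.055 to 0.184 for Map1b, -0.095 to 0.057 for Npy, -0.104 to 0.127 for Nrxn3, -0.678 to 0.096 for Olig1, -0.068 to 0.319 for Penk, -2.94 to 1.14 for Psmd10, -0.041 to 0.042 for Sgk1, -0.015 to 0.064 for Smarca2, -0.165 to 0.0036 for Sst and -0.388 to 0.045 for mt-Co1. Genes at 3 counts or fewer in a library, 0.0507 to 0.0741 CPM, are not measured with useful precision.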
